A study of Mus musculus with 18 samples.

Results

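The interferon-induced GTPases described here are 5 guanylate-binding proteins (GBPs: Gbp2, Gbp3, Gbp5, Gbp7 and Gbp9) and 4 immunity-related GTPases (IRGs: Irgm1, Irgm2, Igtp and Ifi47). They were chosen by name from a list of 10 symbols, and 9 of the 10 were rows of the count table, which held 11243 protein-coding genes. The tenth, Iigp1, was not analysed here. The cells were RAW264.7, a mouse macrophage line, and all 3 treatments started from the same line. Control cells received the vehicle of the inhibitor (DMSO), the second group 500 ng/mL LPS for 6 h, and the third the same LPS together with 100 nM torin1, which was added 15 min earlier. Torin1 inhibits the mTOR kinase at its active site. From each of 3 independent experiments, each treatment gave 1 library of total mRNA and 1 of mRNA from heavy polysomes, so that 18 libraries came from 9 lysates. One transformed line stands for macrophages in these data, and no interferon was added to the cells.

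GBPs and IRGs are GTPases of the dynamin superfamily that interferons induce in many cell types. They assemble on the vacuoles of intracellular pathogens and on bacteria in the cytosol, break these membranes open and help the cell detect LPS through caspase-11. Among the IRGs, Irgm1, Irgm2 and Igtp (also called Irgm3) are known as regulators that sit on the cell's own membranes and hold the effector IRGs inactive there. In macrophages, LPS signals through TLR4 and the adaptor TRIF to IRF3 and interferon-β, and interferon-β then acts on the same cell through its receptor and a complex of transcription factors that includes IRF9. This complex binds the interferon-stimulated response element (ISRE). The gamma-activated site (GAS) is a further element of interferon-induced promoters.

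In GRCm38, Gbp5, Gbp7, Gbp3 and Gbp2 lie in this order on the plus strand of chromosome 3, between 142493978 and 142638008, a span of 144 kb. Gbp9 lies on the minus strand of chromosome 5 (105077630 to 105139539), and its exons overlap those of Gbp8 and Gbp4 on the same strand. The IRG genes form 2 pairs on chromosome 11. Irgm1 (48861968 to 48871683, minus strand) and Ifi47 (49076587 to 49096974, plus strand) make up the first pair. Igtp (58199556 to 58207591) and Irgm2 (58199618 to 58222782) make up the second pair, and both are on the plus strand. Exons of Igtp and Irgm2 overlap each other in the annotation, and those of Ifi47 overlap Olfr56 on the same strand. Counts of Gbp9, Igtp, Irgm2 and Ifi47 therefore carry an uncertainty of assignment, as do those of Gbp2, which has the close paralog Gbp2b as its neighbour, and of Gbp7, whose exons overlap a processed pseudogene.

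Promoter windows of 300 bases, from 250 bases before to 50 after the start site, were taken from RefSeq (GRCm38.p6) and were found for 8 of the 9 genes, all but Gbp9. An ISRE, searched on both strands as GAAA, any 2 bases and GAAA again, was present in 7 of the 8 (Gbp2, Gbp3, Gbp5, Gbp7, Irgm1, Igtp and Irgm2). Of all 32851 windows, 3.44% held this motif, as did 3.83% of the 8568 counted genes with a window. A GAS, searched as TTC, any 3 bases and GAA, which reads alike on both strands, was present in 4 of the 8 (Gbp5, Gbp7, Igtp and Irgm2), against 8.3% of all windows. No match to either motif lay in the Ifi47 window. The following stretches before the start site are shown because they hold the ISRE of each gene, with the matches to either motif in capitals. They are written 5′ to 3′ on the strand of the gene. The start sites are those of RefSeq, and some differ from the gene starts given above, which are from GENCODE. All 30 bases of the Irgm1 stretch and 27 of the 40 of Gbp2 lie in GENCODE exons, and the Gbp5 and Irgm2 stretches lie inside the gene spans.
Gbp5, chr3:142496754-142496905, plus strand: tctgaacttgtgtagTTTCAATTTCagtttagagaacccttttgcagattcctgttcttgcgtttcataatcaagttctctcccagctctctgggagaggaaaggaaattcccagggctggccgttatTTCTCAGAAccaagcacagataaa
Gbp7, chr3:142530215-142530307, plus strand: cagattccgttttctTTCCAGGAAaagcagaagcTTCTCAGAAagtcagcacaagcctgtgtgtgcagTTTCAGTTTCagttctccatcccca
Gbp3, chr3:142559984-142560029, plus strand: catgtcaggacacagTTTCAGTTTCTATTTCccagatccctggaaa
Gbp2, chr3:142620589-142620628, plus strand: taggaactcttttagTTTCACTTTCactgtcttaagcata
Irgm1, chr11:48871428-48871457, minus strand: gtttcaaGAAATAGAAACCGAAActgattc
Igtp, chr11:58199496-58199546, plus strand: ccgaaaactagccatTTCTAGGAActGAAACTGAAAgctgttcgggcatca
Irgm2, chr11:58214887-58214937, plus strand: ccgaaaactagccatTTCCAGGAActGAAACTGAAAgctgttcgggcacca

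The 4 GBP genes carried their ISRE on the strand opposite to transcription, and the 3 IRG genes carried it on the strand of transcription. In Gbp3 and Irgm1, 2 matches overlapped. The Igtp and Irgm2 windows were 68.1% identical over 270 aligned bases without gaps and shared an identical run of 61 bases. No other pair of windows was more than 35.1% identical. These matches describe the sequence only, and binding was not measured.

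The libraries held between 27800983 and 47725557 counted reads, and the lowest count of any of the 9 genes in any library was 20. Of 9 macrophage markers, 8 were counted, with a summed level of 12100 to 13000 CPM (counts scaled to a common library size with TMM) in total mRNA of control cells. Of 20 markers of other cell types only Cdh5, Zbtb46 and Xcr1 were in the table, which keeps no gene with a count of 0 in any library. Their summed level in total mRNA was 1.67 to 2.57 CPM without LPS, 8.17 to 13.5 CPM after LPS and 3.86 to 4.78 CPM with LPS and torin1. Most of this difference was Xcr1, with means of 0.741, 9.39 and 3.12 CPM in the same order, while Zbtb46 fell with LPS from 0.933 to 0.442 CPM (log2 fold change -1.07 ± 0.42, adjusted p = 0.0611, edgeR). The part of these markers in the results was not tested.

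Experiment 2 stood apart for the GTPase genes, but not for these alone. In its control library of total mRNA the 9 genes were 1.01 to 1.86 higher on the log2 scale than the mean of experiments 1 and 3, with a median of 1.38 against 0.0080 for all genes. The polysome library of the same control lysate gave 0.98 to 1.64, with a median of 1.43 against -0.0086. Genes outside the 9 shared this in total mRNA of control cells. In experiments 1, 2 and 3, Gbp2b was at 1.03, 4.12 and 1.79 CPM and Irf7 at 73.15, 194.2 and 95.8 CPM. Ifngr1, at 46.9, 40.7 and 46.9 CPM, was lowest in experiment 2. The summed level of the 9 genes with LPS and torin1 in total mRNA was also higher in experiment 2 (1706 CPM) than in experiments 1 and 3 (890.5 and 840.5 CPM), while with LPS alone experiments 1, 2 and 3 held 2062, 2013 and 1552 CPM. Results that change without an experiment are given with and without it.

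**Figure D1:**
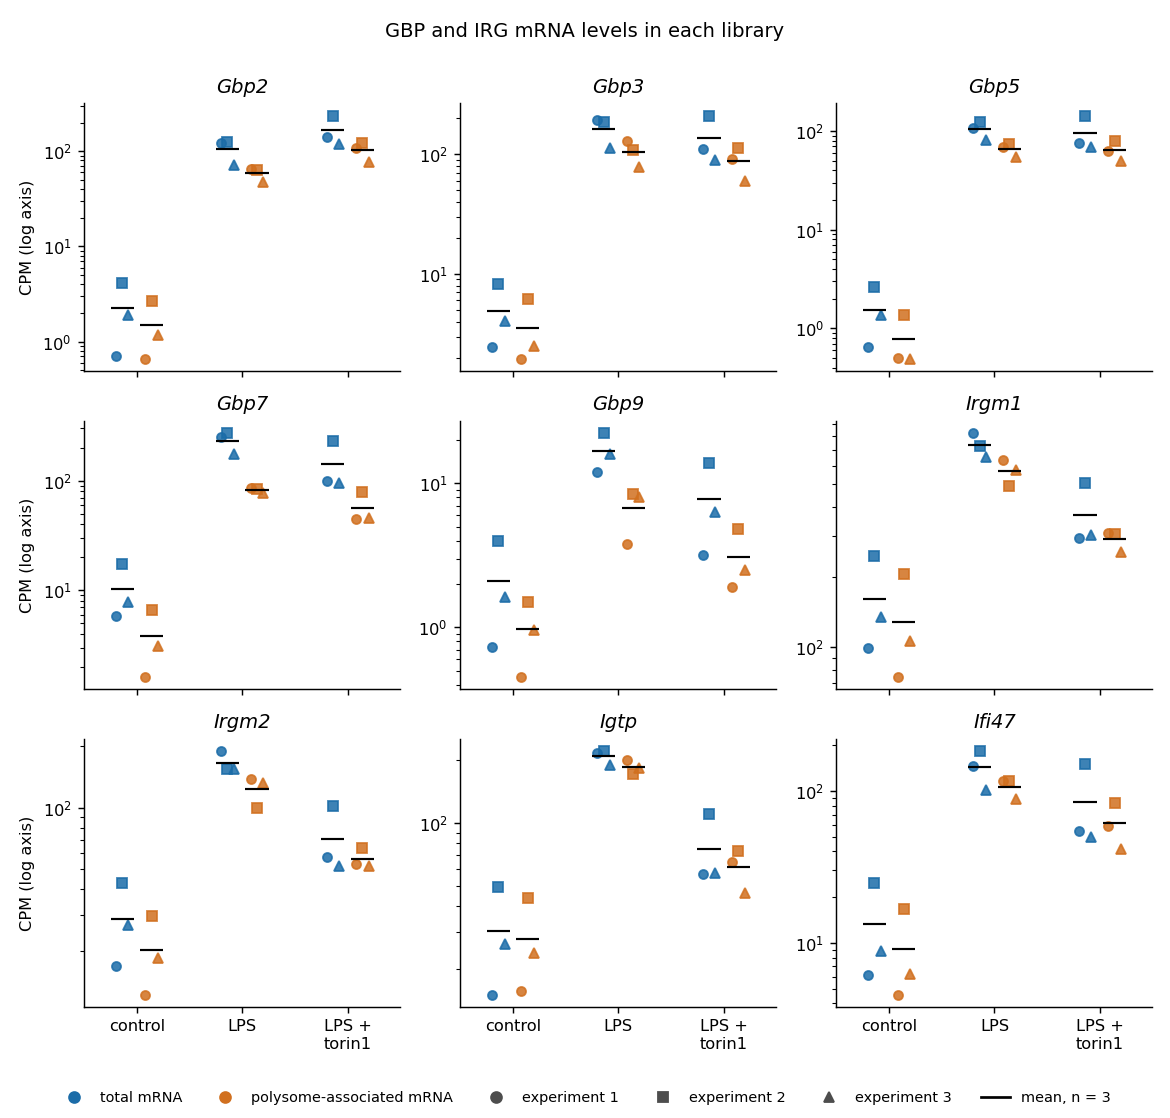
CPM (log axis) of the 9 genes in every library, by treatment; symbols mark the experiment, colours the RNA type, and bars the mean of 3 libraries. All LPS libraries lie above all control libraries for each gene, and the control library of experiment 2 is the highest of its group.

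In control cells the IRGs were the more abundant mRNAs per length. As TPM, which divides counts by the union of annotated exons, total mRNA of Irgm1 stood highest at 122.6 ± 56.8 (SD, n = 3), followed by Igtp at 66.5 ± 37.4, Irgm2 at 34.7 ± 15.2 and Ifi47 at 23.7 ± 17.5. The GBPs ranged from 8.21 ± 4.71 TPM for Gbp7 down to 1.04 ± 0.66 for Gbp5. The ranges of the 3 libraries overlapped for every pair of neighbours in this order. With LPS, Irgm1 (383 to 458 TPM) and Igtp (324 to 352 TPM) stood highest without overlapping each other, and Ifi47, Gbp3, Irgm2, Gbp2 and Gbp7 followed with means from 189.5 down to 135.3 TPM and overlapping ranges. Gbp5 reached 41.7 to 60.1 TPM and Gbp9 7.53 to 13.8 TPM, each apart from its neighbours. With LPS and torin1 the order changed at the top, where Gbp2 at 231 ± 77.4 TPM and Irgm1 at 220.5 ± 63.5 TPM had overlapping ranges.

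The first comparison asked how LPS changes these mRNAs. All 9 genes rose with LPS in total mRNA (edgeR's quasi-likelihood test, FDR threshold 0.25 over all genes), where 32.2% of all genes rose and 34.3% fell. All 9 also rose in polysome-associated mRNA, where 26.4% of all genes rose. The median log2 fold change of the 9 was 3.43 in total mRNA, against -0.02 for all genes, and 3.55 among polysome-associated mRNAs, against -0.03. For all 9, every LPS library lay above every control library in both RNA types. The same held for 25.6% of all genes in total and 22.1% in polysome-associated mRNA. Fewer cells that express a gene and less RNA of it per cell cannot be told apart in such libraries.

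The GBPs of chromosome 3 showed the largest changes of the group. Gbp5, which is known for promoting inflammasome assembly, was at 0.639, 2.64 and 1.38 CPM in total mRNA of control cells of experiments 1, 2 and 3, and at 107.9, 124.04 and 80.7 CPM with LPS. Each LPS library thus stood far above each control library, and the fold was 65 (log2 fold change 6.02 ± 0.47, SE, adjusted p = 5.8e-06, edgeR). In polysome-associated mRNA, Gbp5 went from 0.500, 1.36 and 0.491 CPM to 69.4, 74.4 and 54.1 CPM, or 6.41 ± 0.40 on the log2 scale (adjusted p = 3.78e-06, edgeR). Gbp2, which acts on the vacuoles of Toxoplasma and on cytosolic bacteria, rose from 0.700, 4.14 and 1.91 CPM to 122.3, 124.9 and 71.3 CPM in total mRNA. Its log2 fold change was 5.52 ± 0.53 (adjusted p = 2.25e-05, edgeR), and 6.20 without experiment 2, whose control library was the highest. Gbp3 rose by 5.04 ± 0.49 and Gbp7 by 4.47 ± 0.48 on the log2 scale in total mRNA. Gbp9, the one GBP counted outside this cluster, was the least abundant of the 9 genes with LPS (12.1, 22.2 and 16.1 CPM, against 0.730, 3.98 and 1.61 CPM in control cells) and rose by 2.96 ± 0.61 (adjusted p = 0.00275, edgeR). Without experiment 2 its value was 3.58, and in polysome-associated mRNA Gbp2, Gbp3 and Gbp7 moved from 5.29, 4.88 and 4.45 to 5.91, 5.51 and 5.08.

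The 4 IRGs counted here had higher mean levels per length in control cells than the GBPs of chromosome 3 and rose by smaller folds than these did. The table keeps no gene with a count of 0 in any library, so GTPase genes silent in a control library are missing from this comparison. Irgm1, which is linked to autophagy and to the control of interferon responses, went from 99.3, 247 and 134 CPM to 823, 728 and 649 CPM in total mRNA. The groups did not overlap, and the change was a fold of 4.58 (2.20 ± 0.32 on the log2 scale, adjusted p = 0.000352, edgeR). Igtp rose from 15.1, 49.5 and 26.4 CPM to 217, 221 and 191 CPM, a fold of 6.91 (2.79 ± 0.40). Irgm2, a regulator at the Golgi, rose by 2.53 ± 0.34 and Ifi47 (also called IRG-47 or Irgd) by 3.43 ± 0.57 in total mRNA. The 4 IRGs rose by 2.14 to 3.55 in polysomes. Leaving out experiment 2 raised the IRG values to between 2.66 and 4.04 in total and between 2.73 and 4.23 in polysome-associated mRNA, of which Ifi47 in both RNA types and Irgm1 in polysomes moved by more than 1.5 times.

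**Figure D2:**
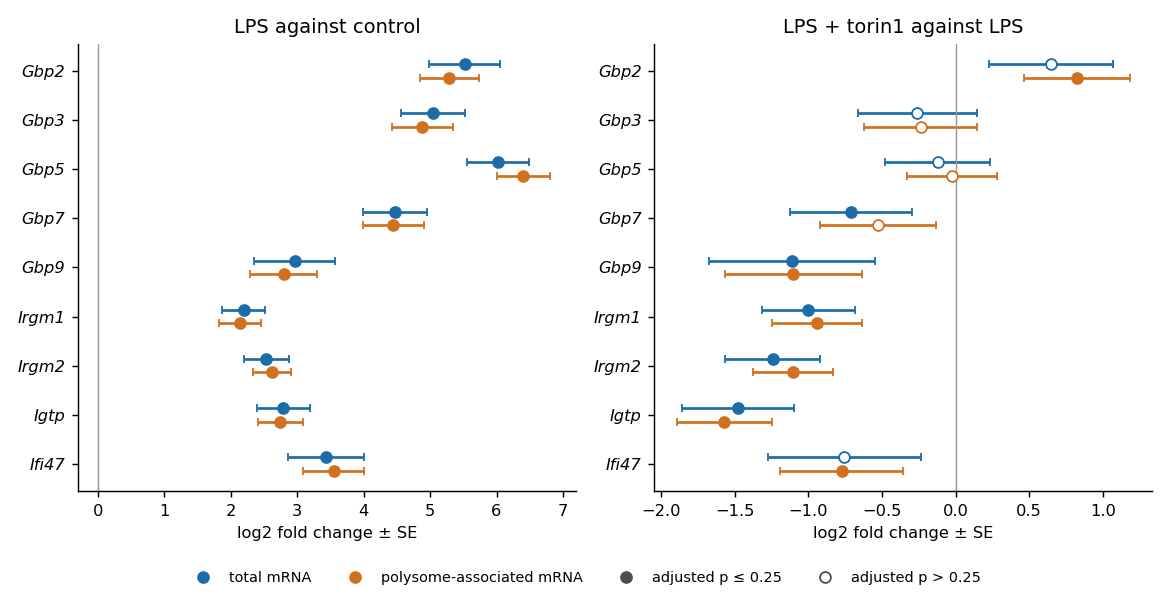
Log2 fold change ± SE (edgeR, n = 3 libraries a group) of the 9 genes for LPS against control (left) and LPS with torin1 against LPS (right); filled points passed the FDR of 0.25. LPS raised all 9 genes, by 2.20 to 6.02 in total mRNA. The torin1 values range from -1.48 for Igtp to 0.65 for Gbp2 in total mRNA and from -1.57 to 0.83 for the same genes in polysomes.

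The second comparison asked how these mRNAs differ between cells with LPS and torin1 and cells with LPS alone. No group received torin1 without LPS. An effect of torin1 on the resting level of a gene and one on its response to LPS therefore cannot be told apart. Relative to LPS alone, torin1 lowered 5 of the 9 genes in total mRNA (Gbp7, Gbp9, Irgm1, Irgm2 and Igtp) and raised none, where 26.4% of all genes fell and 27.3% rose (edgeR). In polysome-associated mRNA it lowered 5 (Gbp9, Irgm1, Irgm2, Igtp and Ifi47) and raised 1, Gbp2, where 18.2% of all genes fell and 20.3% rose. An unadjusted p under 0.05 was reached by 3 of the 9 in total mRNA and 5 in polysomes (edgeR). Of all genes, 4596 and 3364 reached it. The median log2 fold change of the 9 genes was -0.76 in total mRNA, against 0.0012 for all genes, and -0.77 in polysomes, against -0.00035. Without experiment 1, 4 genes fell and Gbp2 rose in total mRNA, and 4 fell in polysomes. Without experiment 2, 7 fell in total mRNA, and 6 fell and 1 rose in polysomes. Without experiment 3 the genes that passed were Irgm1, Irgm2 and Igtp in total mRNA and Igtp alone in polysomes. Calls over all genes moved as well. In total mRNA 2455, 2603 and 1894 of all genes fell without experiments 1, 2 and 3, against 2966 in the main test. In polysomes 740, 2629 and 478 fell, against 2044. These tests did not pair the experiments. With the experiment added to the model as a block, Gbp2 rose and 6 genes (Gbp7, Gbp9, Irgm1, Irgm2, Igtp and Ifi47) fell in each RNA type. Of all 11243 genes, 3534 then fell and 3662 rose in total mRNA, and 2736 fell and 2851 rose in polysomes (edgeR).

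Igtp fell most. It was at 217, 221 and 191 CPM with LPS and at 56.9, 111.2 and 57.6 CPM with LPS and torin1 in total mRNA, so that the groups did not overlap. This was a change of -1.48 ± 0.38 on the log2 scale (adjusted p = 0.016, edgeR), which left 35.9% of the LPS level. In polysome-associated mRNA, Igtp went from 201, 172 and 185 CPM to 64.9, 73.3 and 46.0 CPM (-1.57 ± 0.32, adjusted p = 0.011, edgeR). For torin1 against LPS, here and below, the share of all genes whose groups did not overlap was not counted.

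Irgm2 fell from 189, 156 and 155 CPM to 57.2, 102 and 51.8 CPM in total mRNA (-1.24 ± 0.33, adjusted p = 0.0171, edgeR). Irgm1 fell from 823, 728 and 649 CPM to 293, 507 and 301 CPM (-0.999 ± 0.31, adjusted p = 0.0365, edgeR). For both genes every library with torin1 lay below every library with LPS alone, and experiment 2 had the highest torin1 library. The polysome libraries gave log2 fold changes of -1.11 ± 0.27 for Irgm2 (adjusted p = 0.0244) and -0.94 ± 0.30 for Irgm1 (adjusted p = 0.0649, edgeR), and both calls were lost without experiment 3 (adjusted p = 0.266 and 0.384). Ifi47 was at 145, 183 and 102 CPM with LPS and at 54.8, 150 and 49.8 CPM with torin1 in total mRNA. It was lower with torin1 in 3 of 3 experiments, but the torin1 library of experiment 2 lay within the range of the LPS libraries, and the value of -0.76 ± 0.52 did not pass the test (adjusted p = 0.303, edgeR). Without experiment 2 it was -1.24 (adjusted p = 0.0123, edgeR). In polysomes Ifi47 fell by 0.77 ± 0.42 (adjusted p = 0.243, edgeR), a call that was lost without experiment 1 or without experiment 3 (adjusted p = 0.534 and 0.567).

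The GBPs did not move together. Gbp2 was at 122.3, 124.9 and 71.3 CPM with LPS and at 142.5, 237 and 120 CPM with torin1 in total mRNA, higher in 3 of 3 experiments, but the groups overlapped and the value of 0.65 ± 0.42 did not pass the test (adjusted p = 0.277, edgeR). In polysome-associated mRNA it rose from 64.6, 63.3 and 47.9 CPM to 107.5, 121 and 77.9 CPM, with no overlap between the groups. That change was 0.83 ± 0.36 (adjusted p = 0.151, edgeR). The call in polysomes was lost without experiment 1 (adjusted p = 0.311) and without experiment 3 (adjusted p = 0.409), with log2 fold changes of 0.87 in both cases.

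Gbp5 and Gbp3 did not pass the test in either RNA type. The Gbp5 values were -0.12 ± 0.36 in total and -0.03 ± 0.31 in polysome-associated mRNA, and those of Gbp3 were -0.26 ± 0.40 and -0.24 ± 0.38. In both genes experiment 2 was higher with torin1 than without, while experiments 1 and 3 were lower. Without experiment 2, Gbp3 fell in total mRNA (-0.61, adjusted p = 0.184, edgeR). Gbp7, from 252, 269.5 and 174.5 CPM with LPS to 98.4, 231 and 96.0 CPM with torin1, fell in total mRNA (-0.71 ± 0.42, adjusted p = 0.226, edgeR), and the call was lost without experiment 1 or 3 (adjusted p = 0.551 and 0.46). In polysomes its value was -0.53 ± 0.39 (adjusted p = 0.407, edgeR), and -0.84 without experiment 2 (adjusted p = 0.0368). Gbp9 fell by 1.11 ± 0.56 in total mRNA (adjusted p = 0.165, edgeR) and by 1.10 ± 0.47 in polysomes (adjusted p = 0.142), with both calls lost without experiment 3 (adjusted p = 0.472 and 0.592).

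**Figure D3:**
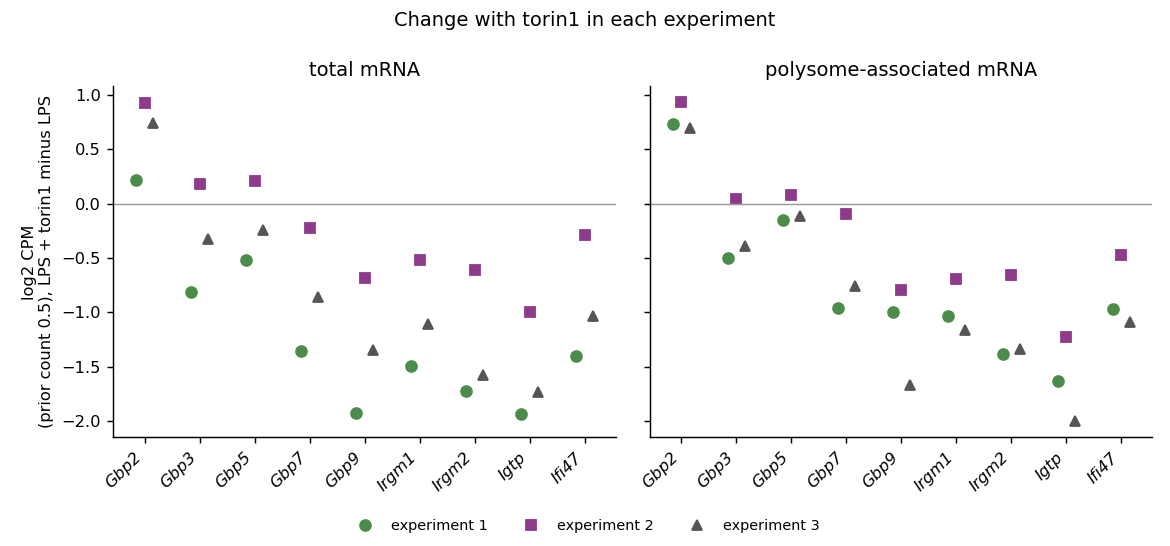
Difference in log2 CPM (prior count 0.5) between LPS with torin1 and LPS alone in each of 3 experiments, for total mRNA (left) and polysome-associated mRNA (right). Gbp2 lies above 0 in all experiments, and Gbp7, Gbp9, Irgm1, Irgm2, Igtp and Ifi47 lie below 0 in all. Experiment 2 has the highest value of each gene.

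The make-up of the group differed between treatments. The summed CPM of the 4 GBPs of chromosome 3 was divided by that of the 4 IRGs of chromosome 11 in each library, a grouping chosen after the values had been seen and therefore given with no test. The ratio in total mRNA was 0.0702, 0.089 and 0.0776 without LPS, 0.491, 0.546 and 0.4 after LPS, and 0.923, 0.944 and 0.813 with LPS and torin1. For the polysome libraries it was 0.0443, 0.0573 and 0.0472, then 0.32, 0.375 and 0.263, and 0.628, 0.743 and 0.589, in the same order. The treatments did not overlap in either RNA type. With torin1 the sum over the IRGs fell from 1370, 1290 and 1100 CPM to 461, 870 and 460 CPM in total mRNA, while the sum over the GBPs was 675, 703 and 439 CPM with LPS and 426, 822 and 374 CPM with torin1.

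**Figure D4:**
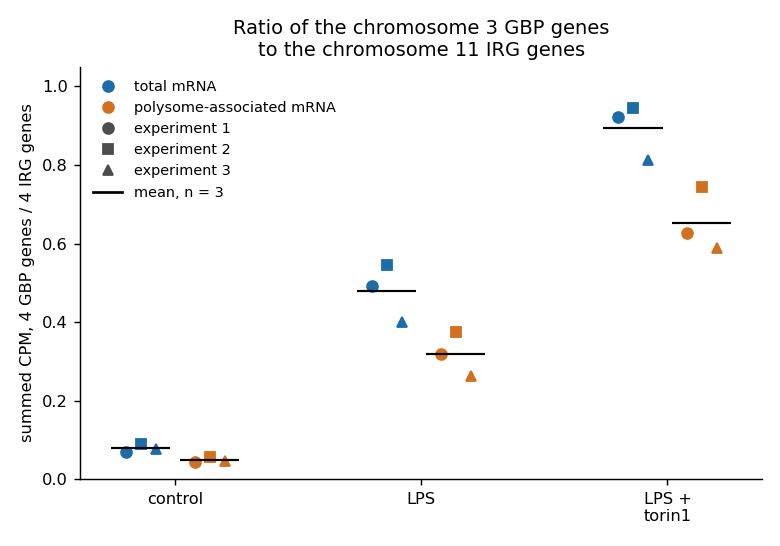
Summed CPM of Gbp2, Gbp3, Gbp5 and Gbp7 divided by that of Irgm1, Irgm2, Igtp and Ifi47, per library and treatment; symbols mark the experiment and bars the mean of 3 libraries. The mean ratio in total mRNA was 0.0789 for the control, 0.479 after LPS and 0.893 with LPS and torin1.

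Torin1 left all 9 genes above control cells. With LPS and torin1 against control, all 9 rose in total mRNA, where 33.1% of all genes rose, and all 9 in polysome-associated mRNA, where 28.5% rose (edgeR). The smallest log2 fold changes in total mRNA were those of Irgm1 (1.196 ± 0.32, adjusted p = 0.00996), Irgm2 (1.29 ± 0.33, adjusted p = 0.0082) and Igtp (1.31 ± 0.38, adjusted p = 0.0166, edgeR). The largest was that of Gbp2, 6.17 ± 0.55, followed by Gbp5 at 5.90 ± 0.47. This comparison shares its control libraries with the first and its torin1 libraries with the second.

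The third question was whether the share of these mRNAs in heavy polysomes changed beyond the change in total mRNA, which the study calls translation efficiency. For LPS against control, 0 of the 9 genes passed the interaction test in edgeR (0% of all genes, and 44 of 11243 at an unadjusted p under 0.05), and the values lay between -0.24 for Gbp2 and 0.38 for Gbp5. For LPS with torin1 against LPS, 0 of the 9 passed (0% of all genes, and 110 of 11243 at an unadjusted p under 0.05), with values between -0.12 for Igtp and 0.16 for Gbp7. None of the 9 had an unadjusted p under 0.05 in either comparison. The test treats the 2 libraries of a lysate as independent, and the share of all genes under 0.05 was itself far below 0.05. Few calls could be expected from it, so 0 of 9 does not show that the share in polysomes stayed the same. The study, with anota2seq, reported altered translation efficiency of a subset of mRNAs after LPS. The SE of the interaction values was 0.46 to 0.85. With the lysate as a block it was 0.165 to 0.293, and 0 of the 9 passed in either comparison, against 0% of all genes for LPS and 0.222% (25 genes, all lower) for torin1. The blocked values of the 9 lay between -0.31 for Gbp9 and 0.34 for Gbp5 with LPS and between -0.07 for Igtp and 0.21 for Gbp7 with torin1. With DESeq2, 0 of the 9 were called in either comparison, against 1 gene of the table for LPS and 13 for torin1. An analysis of partial variance, which regresses polysome-associated on total mRNA, called 0 of the 9 for LPS and 0 for torin1, against 13 and 24 genes of the table, and 2 of the 9, Gbp5 and Ifi47, had an unadjusted p under 0.05 for LPS. Its values for LPS lay above 0 for all 9 genes, from 0.45 for Irgm1 to 2.48 for Gbp5, where the interaction gave 6 of them (Gbp2, Gbp3, Gbp7, Gbp9, Irgm1 and Igtp) below 0. The interaction and the analysis of partial variance measure different quantities. The interaction subtracts the whole change in total mRNA, and the other subtracts that change times a slope fitted within treatments. Their signs are therefore not comparable as directions of 1 quantity, and none of these values passed.

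Within a treatment, the fitted level in heavy polysomes was below that in total mRNA for each of the 9 genes, on the relative scale that TMM gives. In control cells Gbp5, Gbp7, Gbp9 and Irgm2 passed the test, 4 of 9, where 33.2% of all genes were lower in polysomes (edgeR). With LPS it was 5 of 9, all of them GBPs (Gbp2, Gbp3, Gbp5, Gbp7 and Gbp9), against 31.1%, and with LPS and torin1 it was 4 of 9 (Gbp2, Gbp5, Gbp7 and Gbp9), against 27.8%. Both libraries of a pair came from the same lysate. With the lysate as a block 8, 8 and 9 genes were lower in control, LPS and torin1-treated cells, against 38.6%, 36.4% and 35.6% of all genes. Igtp was the gene that did not pass in control cells (adjusted p = 0.544) and with LPS (adjusted p = 0.252).

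Gbp7 was lowest in polysomes in control and LPS-treated cells. With LPS it was at 252, 269.5 and 174.5 CPM in total mRNA and at 86.6, 84.4 and 78.0 CPM in polysomes, a log2 difference of -1.48 ± 0.45 (adjusted p = 0.0145, edgeR). The polysome libraries all lay below the total libraries. Gbp7 gave -1.46 ± 0.47 in control cells and -1.33 ± 0.45 with LPS and torin1, and it passed without each experiment in turn. Gbp9 followed with -1.14 ± 0.62, -1.31 ± 0.57 and -1.33 ± 0.58, in the same order. Igtp, with -0.13 ± 0.38, -0.17 ± 0.38 and -0.29 ± 0.38, was closest to 0 in all 3 treatments. Without experiment 3 the calls were Gbp7 in control cells, Gbp2, Gbp7 and Gbp9 with LPS, and Gbp7 with torin1. Without experiment 1 they were Gbp5, Gbp7 and Gbp9 in control cells, Gbp2, Gbp7 and Gbp9 with LPS, and Gbp7 and Gbp9 with torin1. Without experiment 2, 5, 6 and 2 genes were lower in control, LPS and torin1-treated cells. Of all genes, 3714, 3206 and 2505 were then lower, in the same order, against 3737, 3498 and 3122 in the main test. Without experiment 1 it was 2916, 2659 and 2406 of all genes, and without experiment 3 it was 3141, 3159 and 2649.

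**Figure D5:**
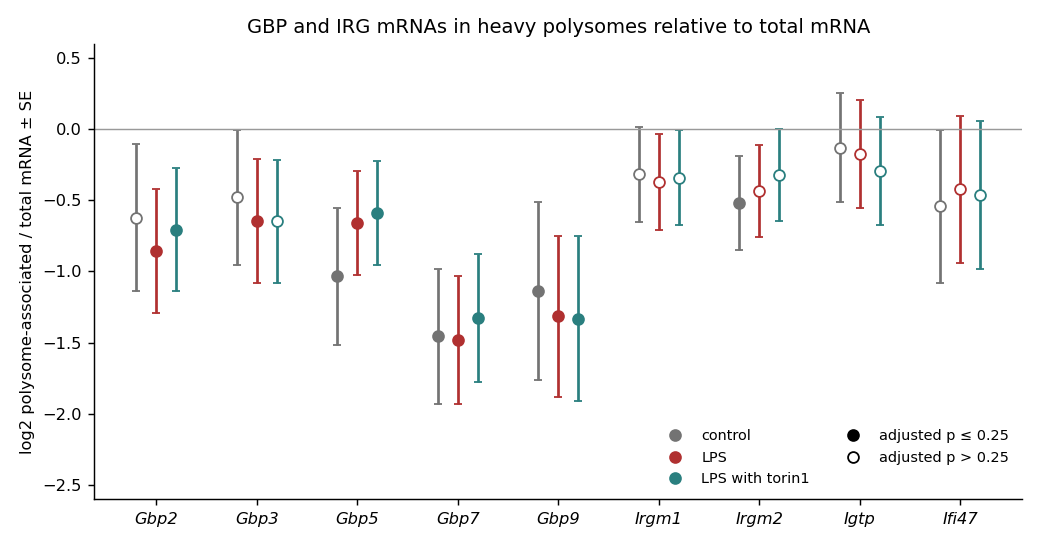
Log2 difference ± SE between polysome-associated and total mRNA (edgeR, n = 3 libraries each) of the 9 genes in control, LPS and LPS with torin1; filled points passed the FDR of 0.25 without the lysate block. All values lie below 0, from -1.48 for Gbp7 to -0.13 for Igtp.

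Of 23 listed relatives of these GTPases, 5 were counted, namely Gbp2b, Irgq, Gm4070, 9930111J21Rik1 and 9930111J21Rik2. All 5 rose with LPS in both RNA types (edgeR), where 32.2% of all genes rose in total and 26.4% in polysome-associated mRNA. Gbp2b, which lies between Gbp3 and Gbp2, was at 1.03, 4.12 and 1.79 CPM in total mRNA of control cells and at 118.3, 128.6 and 74.7 CPM with LPS (5.50 ± 0.49, adjusted p = 1.34e-05, edgeR). In polysomes it rose with torin1 from 41.2, 44.5 and 38.1 CPM to 75.2, 69.2 and 62.8 CPM, with no overlap (0.77 ± 0.31, adjusted p = 0.124, edgeR), and in total mRNA its value was 0.51 ± 0.39 (adjusted p = 0.356). Gm4070, 9930111J21Rik1 and 9930111J21Rik2 fell with torin1 in total mRNA, by 0.87, 0.70 and 0.85 on the log2 scale. Irgq, an IRG-like gene with little change under LPS (0.31 ± 0.11), rose with torin1 by 0.45 ± 0.11 (adjusted p = 0.0146, edgeR).

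Of 28 genes of the pathway that leads from TLR4 to interferon-stimulated transcription, 27 were counted, and interferon-β itself (Ifnb1) was not among them. With LPS in total mRNA, 19 rose and 4 fell, where 32.2% of all genes rose and 34.3% fell, and the median log2 fold change was 0.75, against -0.02 for all genes. Of those, Socs3 (6.89 ± 0.18) and Socs1 (3.22 ± 0.36), which restrain cytokine signalling, rose most, and Ticam2 (-1.17 ± 0.17), an adaptor of TLR4, and Ifngr1 (-0.70 ± 0.11), a chain of the interferon-γ receptor, fell most. With torin1 in total mRNA 11 fell and 6 rose, where 26.4% of all genes fell and 27.3% rose, and the median was -0.06 against 0.0012. Among the genes that fell was Socs3 (-1.06 ± 0.14), and Ticam2 (1.35 ± 0.17) and Ifnar1 (0.55 ± 0.17), a chain of the receptor for interferon-β, rose most.

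Of the transcription factors of this pathway, Irf7, which amplifies interferon production, was at 700.5, 1021 and 549.5 CPM with LPS and at 332, 698 and 250 CPM with torin1 in total mRNA, with overlapping groups (-0.83 ± 0.43, adjusted p = 0.176, edgeR). Irf1, at 127, 104 and 102 CPM with LPS and 70.5, 117.97 and 74.2 CPM with torin1, did not pass the test (-0.34 ± 0.22, adjusted p = 0.274, edgeR). Socs1 fell in total mRNA (-0.83 ± 0.31, adjusted p = 0.0718, edgeR).

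Among 18 genes that act with GBPs and IRGs, such as autophagy conjugation factors, ubiquitin ligases and inflammasome components, 13 rose with LPS and 1 fell in total mRNA, where 32.2% of all genes rose and 34.3% fell (median 0.40, against -0.02 for all genes). Casp4, which encodes caspase-11, the LPS sensor, rose by 3.19 ± 0.33 and Nlrp3 by 2.69 ± 0.12, while Atg5 fell by 0.21 ± 0.11, and the smallest value among those that rose was that of Atg3 (0.29 ± 0.12). With torin1 8 rose and 2 fell in total mRNA, where 27.3% of all genes rose and 26.4% fell (median 0.02, against 0.0012). Map1lc3b (1.14 ± 0.14) and Map1lc3a (1.02 ± 0.28), which encode LC3 proteins of autophagosomes, rose most, and Trim21 (-1.04 ± 0.21), a ubiquitin ligase, and Aim2 (-0.52 ± 0.10), a DNA sensor, fell. Casp4 gave -0.18 ± 0.30 (adjusted p = 0.686, edgeR). Of 5 genes for the prenylation of proteins, a lipid modification that some GBPs carry, 0 rose and 2 fell with LPS in total mRNA, Fntb (-0.26 ± 0.16) and Icmt (-0.17 ± 0.10), where 34.3% of all genes fell. With torin1, Pggt1b rose (0.28 ± 0.10) and Fnta fell (-0.37 ± 0.12), where 27.3% of all genes rose and 26.4% fell.

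The 5 other genes of the table most like the 9, by Pearson correlation of log2 CPM with the median of the 9 centred genes over the 18 libraries, were Herc6 (0.992), Mnda (0.99), Sp110 (0.989), Xaf1 (0.988) and Slfn5 (0.987). The libraries share lysates and treatments, so that these values describe likeness and carry no test. In total mRNA these genes had log2 fold changes of 2.01 to 3.94 with LPS and of -0.97 to -0.50 with torin1.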

How the data were processed

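Total mRNA and mRNA from pooled heavy polysomes were sequenced from the lysates of 3 treatments in 3 experiments. The authors made stranded libraries after removal of ribosomal RNA, aligned paired-end reads to GRCm38 with Hisat2 inside the nextflow RNAseq pipeline at default settings, counted them per gene with featureCounts, and kept protein-coding genes without a count of 0. The deposited values are raw counts of 11243 genes in 18 libraries. How the defaults treat strand is not given in the sources used here. Depth was 27800983 to 47725557 counts per library.

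Counts were tested with edgeR 4.0.16 (quasi-likelihood, TMM) in R 4.3.3, with the 9 libraries of an RNA type in 1 model for treatments and with all 18 libraries and 6 groups for translation efficiency (interaction, fold of at least 1.2) and for polysome-associated against total mRNA. Adjusted p-values are Benjamini-Hochberg over all genes, with the study's FDR threshold of 0.25. The SE was the log2 fold change divided by the square root of F. The study's anota2seq was not used here. An analysis of partial variance with limma 3.58.1 was an alternative, as were DESeq2 1.42.0, its size factors, edgeR's filter on low counts, an FDR of 0.05, each experiment left out and a replicate block. Libraries of the same lysate are matched per the methods, and their deviations from the group means correlated at 0.389 to 0.649 in 9 pairs.

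TPM used the union of GENCODE exons, for 10734 of 11243 genes. The text names all 9 genes, and from each list the 2 highest and 2 lowest of those called plus Irf1, Irf7 and Socs1, except for a listed gene that is not reported here. Genes and lists were chosen with earlier results of these data known. On counts simulated with 200 genes changed by 4-fold, edgeR recovered 96.5% for LPS against control in total mRNA, 97.5% for torin1 in polysomes, 94% for translation efficiency with torin1, and 97.5% for polysome-associated against total mRNA with LPS, among 11243 genes, with 66, 67, 76 and 70 unchanged genes called beside them, in the same order. Smaller changes were not simulated. The simulated libraries were drawn independently, with no effect shared by a lysate or an experiment. Their recovered shares therefore do not cover libraries that share lysates. The largest interaction value of the 9 genes was a fold of 1.3 (Gbp5, LPS against control). Their largest change with torin1 against LPS was a fold of 2.97 (Igtp, lower in polysomes). Both are below the simulated fold, so the recovered shares cannot tell how often changes of these sizes would be missed.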

Additional observations from a re-analysis of the deposited data

How the results depend on the processing

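All 9 genes stayed called with LPS, and with LPS and torin1 against control, in both RNA types under every alternative run. The torin1 counts depended most on the experiments. Leaving 1 out gave 3 to 7 genes called in total mRNA (main value 5) and 1 to 7 in polysomes (main value 6), and an FDR of 0.05 gave 3 and 2. Calls over all genes moved as well. In polysomes 740, 2629 and 478 of all genes fell without experiments 1, 2 and 3, against 2044 in the main test. At an FDR of 0.05, 1520 of all genes fell in total mRNA and 646 in polysomes. For polysome-associated against total mRNA, leaving 1 out gave 1 to 5 genes in control cells, 3 to 6 with LPS and 1 to 2 with LPS and torin1, an FDR of 0.05 gave 1 in each, and DESeq2 gave 2 with LPS and torin1. Of all genes, 2587, 2263 and 1778 were lower in polysomes at an FDR of 0.05, in the same order. DESeq2 gave 2919 of all genes with LPS and torin1. The lysate as a replicate block gave 8, 8 and 9. With 2 libraries a group left, fewer samples alone lower the counts, and the share of this was not tested.

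Experiment numbers across treatments were not treated as pairs in the main tests. Same-numbered libraries of an RNA type had correlations of deviations from -0.0923 to 0.74 (14 of 18 pairs over 0.1). Their mean was 0.313, against -0.155 for libraries of an RNA type with different numbers, and 16 of 18 libraries correlated best with their own number. With the experiment as a replicate block, 1 gene rose and 6 fell with torin1 in each RNA type. The calls gained under it were Gbp2 (0.60, adjusted p = 0.11) and Ifi47 (-0.94, adjusted p = 0.014) in total mRNA and Gbp7 (-0.62, adjusted p = 0.153) in polysomes (edgeR), and no call of the 9 genes was lost. The cause of these differences was not tested.

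No called value changed sign. The 33 sign changes were all in values that passed no test. Leaving 1 experiment out gave Gbp3 -0.61 to 0.0086 and Gbp5 -0.39 to 0.049 with torin1 in total mRNA and Gbp5 -0.11 to 0.029 in polysomes. In translation efficiency with LPS it gave Gbp7 -0.12 to 0.14, Irgm1 -0.15 to 0.086 and Irgm2 -0.018 to 0.15, and with torin1 Gbp3 -0.091 to 0.16, Gbp5 -0.0098 to 0.26, Gbp9 -0.19 to 0.16, Irgm1 -0.12 to 0.22, Igtp -0.24 to 0.035 and Ifi47 -0.15 to 0.22. The block gave Gbp7 0.027 with LPS, and Gbp3 0.037, Gbp9 0.11 and Ifi47 0.060 with torin1. DESeq2 gave Gbp3 0.050, Gbp9 0.035 and Ifi47 0.011 with torin1, and its size factors 0.050, 0.032 and 0.011. The analysis of partial variance, a different quantity, gave Gbp2 1.27, Gbp3 0.60, Gbp7 0.52, Gbp9 0.53, Irgm1 0.45 and Igtp 0.71 with LPS, and Irgm1 -0.15 and Irgm2 -0.20 with torin1.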
